A study of Mus musculus with 10 samples.

Results

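The 9 genes described here encode structural microtubule-associated proteins: Map2, its closest relatives Mapt and Map4, the MAP1 family members Map1a, Map1b and Map1s, the MAP7 family members Map7 and Map7d1, and Map9. They are 9 of the 57010 genes in a table of read counts from 10 whole mammary tumours. Map2 was chosen on its own difference between the genotypes, as 1 of only 2 genes that passed the test over all genes once 1 wild-type library was left out, and the 8 relatives were chosen by name and function. Mice with an RHBDL4 knockout (KO, genotype PyMT; RHBDL4 -/-, 5 tumours) were set against wild-type mice (WT, genotype PyMT; RHBDL4 +/+, 5 tumours). RHBDL4, a membrane protease of the rhomboid family that sits in the endoplasmic reticulum, is encoded by Rhbdd1. Every animal, WT mice included, carried MMTV-PyMT, in which the promoter of mouse mammary tumour virus drives the polyoma middle T oncogene, mainly in mammary epithelium. All tumours were untreated and were taken 5 weeks after tumour onset. The labels give neither the age or strain of the mice nor whether the knockout was confined to a tissue. RNA came from whole tumour tissue, with its stroma, vessels and fat, so fewer cells of a type and less RNA per cell cannot be told apart in any value given here.

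Microtubules are hollow polymers of alpha- and beta-tubulin that grow and shrink at their ends. Structural microtubule-associated proteins lie along the polymer wall, slow its disassembly, space microtubules from each other and set which motor proteins can walk on them. Map2, Mapt (tau) and Map4 share a family of microtubule-binding repeats. In neurons Map2 is held mainly in dendrites and cell bodies and tau mainly in axons, whereas Map4 is found widely outside the nervous system. Map1a and Map1b are large proteins of neurons that are cut into a heavy and a light chain, and Map1s is a shorter, widely expressed relative. Map7, also called ensconsin, is known from epithelial cells and recruits kinesin-1 to microtubules. Map9 is a microtubule-binding protein of the mitotic spindle.

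The promoter windows of the 3 members that set the main contrasts below are shown as reference sequence. Map2 differed between the genotypes, Map7 was low together with Map2 in 1 WT library, and Map4 was high in that library. The windows are from RefSeq (GRCm38.p6), run from 250 bases before to 50 bases after an annotated start, and are written 5' to 3' on the gene's strand. Capitals mark the motif GGGCGG, a core of GC boxes, and its reverse complement, both strands searched, or TATAAA.
Map2, chr1:66175079-66175378, plus strand: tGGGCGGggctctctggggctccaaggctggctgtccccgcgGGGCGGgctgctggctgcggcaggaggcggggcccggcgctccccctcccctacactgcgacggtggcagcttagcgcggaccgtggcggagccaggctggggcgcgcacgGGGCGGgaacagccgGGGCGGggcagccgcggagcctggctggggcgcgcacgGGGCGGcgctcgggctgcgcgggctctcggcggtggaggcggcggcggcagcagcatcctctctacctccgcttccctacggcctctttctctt
Map7, chr10:20148670-20148969, plus strand: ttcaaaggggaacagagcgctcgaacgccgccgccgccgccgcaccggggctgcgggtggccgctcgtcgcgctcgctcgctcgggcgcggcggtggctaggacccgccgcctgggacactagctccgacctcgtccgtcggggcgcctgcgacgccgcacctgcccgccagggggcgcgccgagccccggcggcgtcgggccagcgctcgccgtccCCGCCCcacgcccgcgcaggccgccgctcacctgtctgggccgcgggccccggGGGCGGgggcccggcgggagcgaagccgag
Map4, chr9:109931524-109931823, plus strand: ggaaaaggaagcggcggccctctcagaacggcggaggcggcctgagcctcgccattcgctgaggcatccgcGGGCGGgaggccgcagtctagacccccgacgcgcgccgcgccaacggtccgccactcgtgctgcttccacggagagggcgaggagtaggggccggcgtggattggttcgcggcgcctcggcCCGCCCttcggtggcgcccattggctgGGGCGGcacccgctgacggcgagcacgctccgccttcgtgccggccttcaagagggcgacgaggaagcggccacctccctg
The table held windows for 8 of the 9 members, 11 windows in all. GGGCGG occurred in 8 of these 11, and in 35.7% of all 32851 windows of the same length. Map7d1 and Map9 each had 2 windows that overlap, and those of Map7d1 share their GGGCGG copies, so the 11 are not separate sequences. The Map2 window held 5 copies, a number reached by 2.71% of all windows, and 37 CpG dinucleotides against a median of 7 over all windows, with a GC content of 77.7%. The Map7 window held 2 copies and 55 CpG, and the Map4 window shown 3 copies and 42 CpG. A second Map4 window (chr9:110051771-110052070, not shown) held 0 copies and 5 CpG. TATAAA was found in 2 of the 11 member windows, those of Map9 and Map1b, and in 13.6% of all windows. These matches describe the letters only, and no binding or methylation was measured.

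Total counts ran from 27.4 to 35 M per KO library and from 25.7 to 43.3 M per WT library. Levels are given as CPM (counts per 1000000 counts of the library), scaled between libraries by TMM over all 10. In scaled CPM Rhbdd1 was lower in every KO library than in every WT library, at 17 ± 3.4 CPM in KO tumours (SD, n = 5) and 37.8 ± 5.58 CPM in WT replicates 1 to 4, with 25 CPM in WT replicate 5. Over 9 libraries the edgeR quasi-likelihood test did not call it (adjusted p = 0.113), whereas DESeq2 (7.56e-07) and limma-voom with sample quality weights (0.0253) did. WT replicate 5 stood apart from all other libraries. Its skeletal muscle markers took 8.35% of its counts, against 0.000464% to 0.163% in KO libraries and 0.000432% to 0.00972% in WT replicates 1 to 4. Its luminal epithelial markers took 0.00716%, against 0.423% to 0.78% in KO libraries and 0.487% to 0.589% in WT replicates 1 to 4. Its TMM factor was 0.588 (1.01 to 1.1 elsewhere), which raises all its scaled values. The member results and the list medians are therefore given with all 10 libraries and without WT replicate 5 (9 libraries), and other genes over 9 libraries unless stated. KO replicates 3 and 4, WT replicates 1 and 2 and WT replicates 3 and 4 have library names that begin with a shared number. The labels do not explain it, so the KO libraries may come from fewer than 5 animals and WT replicates 1 to 4 from fewer than 4.

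Map2 (ENSMUSG00000015222, chromosome 1, 66175273 to 66442583, plus strand, GRCm38) stood at 123, 123, 109, 96.9 and 112 CPM in KO replicates 1 to 5. It stood at 48.5, 60.6, 62.1 and 55.3 CPM in WT replicates 1 to 4, and at 4.34 CPM in WT replicate 5. The lowest KO library lay above the highest WT library, with or without WT replicate 5, and both groups were tight. The mean was 113 ± 11 CPM in KO tumours (SD, n = 5) and 56.6 ± 6.16 CPM in WT replicates 1 to 4 (SD, n = 4), with coefficients of variation of 9.73% and 10.9%. With WT replicate 5 included, WT tumours averaged 46.2 ± 24 CPM (SD, n = 5). The raw counts behind these levels were 4620, 3964, 2991, 3216 and 4140 in KO libraries and 1608, 2495, 2893, 1995 and 65 in WT libraries, so counting error is small beside the spread between tumours except in WT replicate 5. Without TMM scaling Map2 ran from 98 to 135 CPM in KO libraries and from 48.9 to 66.9 CPM in WT replicates 1 to 4, again without overlap.

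The log2 fold change of Map2, KO over WT, was 1.01 ± 0.11 (SE) over 9 libraries, a 2.01-fold higher level, and 1.29 ± 0.52 over 10. These are the values on which Map2 was chosen, so they are a description and carry no test. At the threshold behind that choice, an edgeR adjusted p of 0.05 over 9 libraries, Map2 (0.0413) and the cyclin gene Ccnb2 (0.0372) lay just inside and the sialic acid lyase gene Npl (0.056) just outside. Leaving out 1 more library moved the Map2 value to between 0.0534 and 0.247, and summing libraries that share a leading number moved it to 0.681. edgeR called 0.0105% of all genes tested over 9 libraries and 0% over 10. Map2 was the 1 member of 9 for which every KO library exceeded every WT library, against a background of 2.00% of all genes over 9 libraries and 0.807% over 10.

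**Figure D1:**
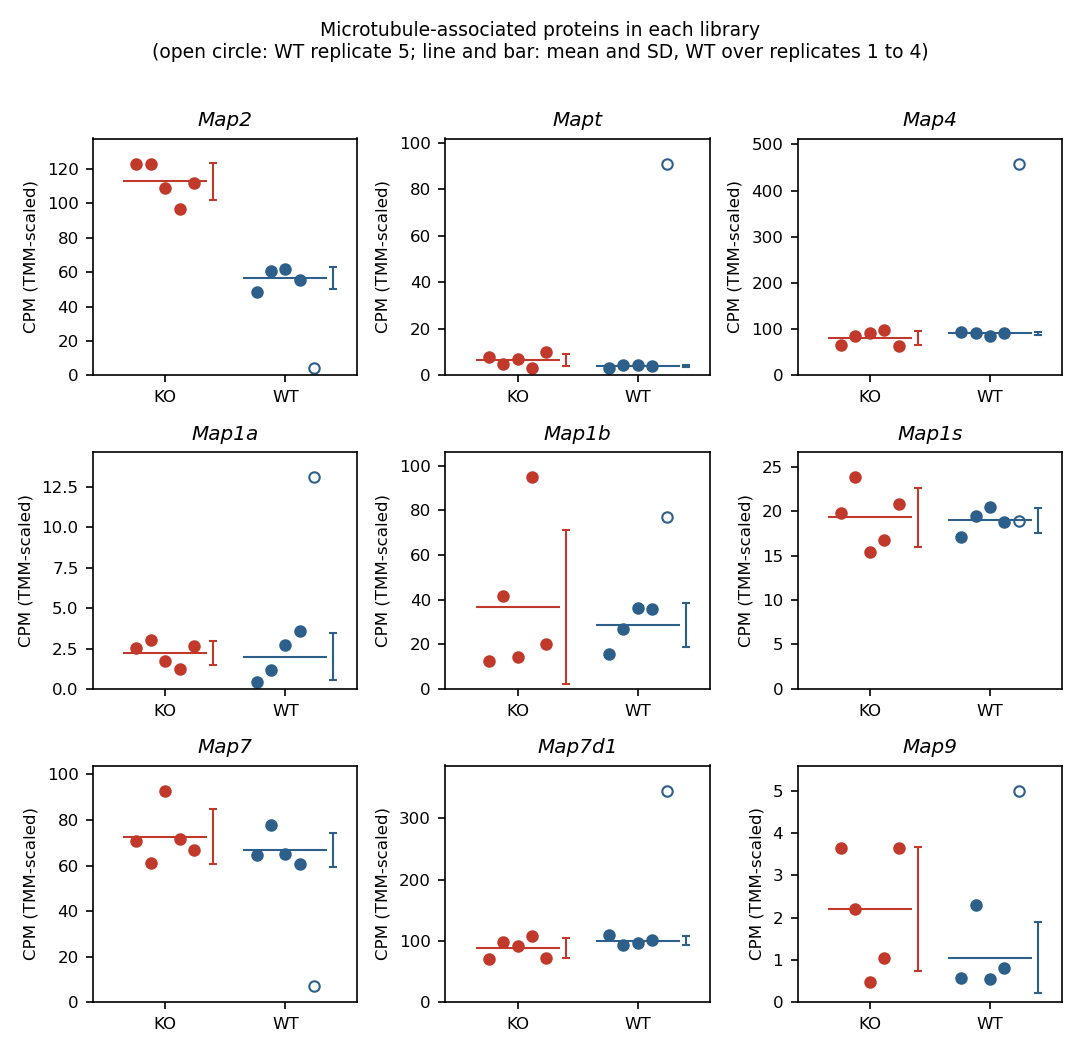
Level of each of the 9 genes in every library, in TMM-scaled CPM on a linear axis that starts at 0, KO (n = 5) left and WT (n = 5) right, with lines and bars for the mean and SD (WT over replicates 1 to 4). Only Map2 separates the filled circles of the 2 groups, at 96.9 to 123 CPM in KO and 48.5 to 62.1 CPM in WT replicates 1 to 4, and the open circle of WT replicate 5 lies far from the rest for most members.

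Mapt, the gene of tau, was a low transcript outside WT replicate 5. It stood at 8.13, 4.78, 6.93, 3.37 and 9.95 CPM in KO replicates 1 to 5 and at 3.32, 4.67, 4.36 and 3.85 CPM in WT replicates 1 to 4, with 91 CPM in WT replicate 5. All KO libraries but replicate 4 lay above the highest of WT replicates 1 to 4, and replicate 4 lay at the level of the lowest. Its log2 fold change was 0.73 ± 0.31 over 9 libraries (edgeR adjusted p = 0.416) and -1.69 ± 1.00 over 10 (adjusted p = 0.671), so its sign turned on WT replicate 5. Map4, the member of this family found widely outside neurons, stood at 66.7, 85.6, 91.6, 99 and 64.3 CPM in KO replicates 1 to 5. WT replicates 1 to 4 gave 93.3, 92.3, 85.5 and 92.7 CPM, and WT replicate 5 gave 458 CPM. KO tumours spread on both sides of the narrow range of WT replicates 1 to 4, with means of 81.4 ± 15.3 and 91 ± 3.63 CPM (SD, n = 5 and 4). The log2 fold change of Map4 was -0.14 ± 0.14 over 9 libraries (edgeR adjusted p = 0.712) and -1.01 ± 0.50 over 10 (adjusted p = 0.669). Neither Mapt nor Map4 passed the test.

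Among the MAP1 genes, Map1b had the widest spread between KO tumours. It stood at 12.6, 41.7, 14.3, 94.8 and 20.2 CPM in KO replicates 1 to 5, against 15.6, 27, 36.2, 35.9 and 76.9 CPM in WT replicates 1 to 5. KO replicate 4 was the highest of all, and the KO libraries at 12.6 and 14.3 CPM lay below every WT library. The KO libraries at 20.2 and 41.7 CPM lay within the range of WT replicates 1 to 5. The mean of 36.7 ± 34.5 CPM in KO tumours compares with 28.7 ± 9.73 CPM in WT replicates 1 to 4. Map1a ran from 1.24 to 3.04 CPM in KO libraries and from 0.422 to 3.6 CPM in WT replicates 1 to 4, with 13.1 CPM in WT replicate 5. Ppip5k1, an inositol phosphate kinase gene that overlaps Map1a on the other strand, held 967% of the Map1a counts, so the low Map1a counts are uncertain if the counting did not use strand. Map1s, the widely expressed member, varied least over the 10 libraries, at 15.4 to 23.8 CPM in KO libraries, 17.1 to 20.5 CPM in WT replicates 1 to 4 and 18.9 CPM in WT replicate 5. The log2 fold changes over 9 libraries were 0.38 ± 0.60 for Map1b, 0.18 ± 0.55 for Map1a and 0.05 ± 0.15 for Map1s (edgeR adjusted p = 0.834, 0.924 and 0.924), and that of Map1b was -0.35 without KO replicate 4. Over 10 libraries they were -0.06 ± 0.61, -0.90 ± 0.76 and 0.03 ± 0.15 (adjusted p = 0.981, 0.732 and 0.958).

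Outside WT replicate 5 the MAP7 genes were the most abundant members per length. Map7, the epithelial kinesin-1 recruiter, stood at 70.8, 61, 92.8, 71.9 and 66.8 CPM in KO replicates 1 to 5, at 64.5, 77.8, 65.1 and 60.7 CPM in WT replicates 1 to 4, and at 7.14 CPM in WT replicate 5. The groups overlapped throughout, and the drop in WT replicate 5 was the only large departure. Its log2 fold change was 0.13 ± 0.13 over 9 libraries (edgeR adjusted p = 0.71) and 0.40 ± 0.47 over 10 (adjusted p = 0.801). Map7d1, a paralogue with the same microtubule-binding domain, stood at 71.5, 98, 91.7, 108 and 71.7 CPM in KO replicates 1 to 5, at 110, 93.9, 96.8 and 102 CPM in WT replicates 1 to 4 and at 345 CPM in WT replicate 5. KO replicates 1 and 5 were the lowest libraries for both Map7d1 and Map4, and were among the highest for Mapt. The log2 fold change of Map7d1 was -0.17 ± 0.14 over 9 libraries (edgeR adjusted p = 0.656) and -0.76 ± 0.38 over 10 (adjusted p = 0.669). Map9, the spindle protein, was a rare transcript, with 13 to 137 counts in KO libraries and 19 to 95 in WT libraries. Its log2 fold change of 1.08 ± 0.66 over 9 libraries was as large as that of Map2, but its groups overlapped (0.472 to 3.65 CPM in KO, 0.558 to 2.31 CPM in WT replicates 1 to 4) and it did not pass the test (edgeR adjusted p = 0.554). The value was 1.78 without WT replicate 2 and 0.28 ± 0.75 over 10 libraries (adjusted p = 0.912).

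As a set, 0 of the 8 relatives were called by edgeR, over 9 libraries (adjusted p from 0.416 to 0.924) or over 10 (0.669 to 0.981). At an unadjusted p under 0.05 there were 2 members, Map2 and Mapt, over 9 libraries, where 2204 of 19016 genes reached that level, and 1 member, Map2, over 10, where 1301 of 18577 genes did. DESeq2 and limma-voom with sample quality weights called 2.28% and 0.752% of all genes over 9 libraries and none of the 8 relatives. Both called Map2, on the same counts that chose it, which adds no separate evidence. Over 10 libraries neither tool called a member, and DESeq2 gave no adjusted p for Mapt and Map4. Over 9 libraries 7 of the 9 members had a positive log2 fold change, with a median of 0.18 against 0.03 over all genes tested. The median of the 8 relatives was 0.16, and their values ran from -0.17 to 1.08. Over 10 libraries 4 of the 9 were positive, with a median of -0.06, the same as over all genes tested, and the median of the relatives was -0.41.

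**Figure D2:**
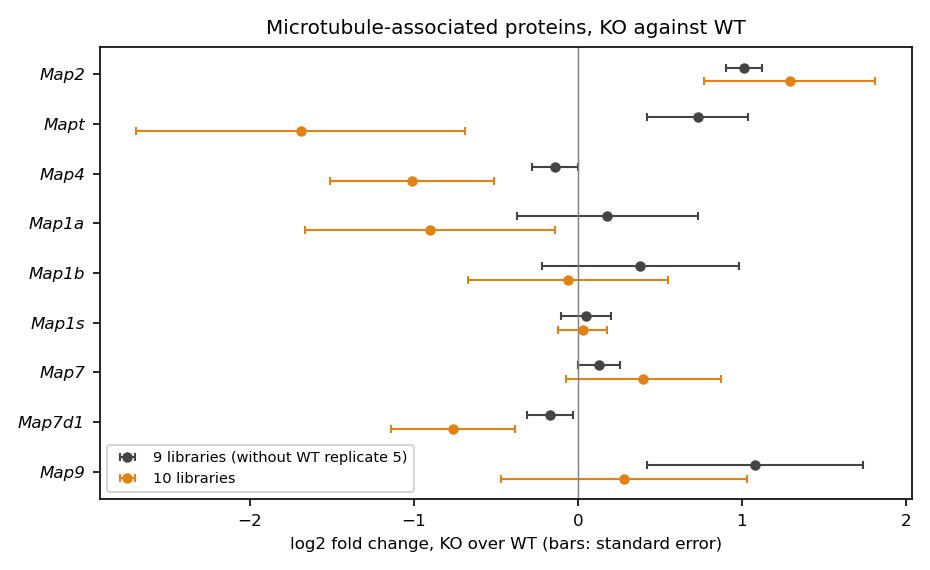
Log2 fold change, KO over WT, of each member with its standard error, over the 9 libraries without WT replicate 5 (dark) and over all 10 (orange). Map2 lies at 1.01 and 1.29, while Mapt moves between 0.73 and -1.69 and Map4 between -0.14 and -1.01 according to whether WT replicate 5 is included.

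To compare levels between genes, CPM were divided by the exonic length of each gene in kb, taken over all annotated transcripts. In KO tumours the order per kb was Map7d1 (24.2 ± 4.45), Map7 (9.16 ± 1.52), Map2 (6.85 ± 0.666), Map4 (5.38 ± 1.01), Map1s (2.43 ± 0.419), Map1b (2.32 ± 2.18), Mapt (0.881 ± 0.347), Map9 (0.331 ± 0.219) and Map1a (0.183 ± 0.0608 CPM per kb, SD, n = 5 each). In WT replicates 1 to 4 Map2 stood at 3.44 ± 0.374 and Map4 at 6.01 ± 0.24 CPM per kb (SD, n = 4), so the order of these 2 genes differed between the groups. The ranges of Map2 and Map4 overlapped in KO libraries (5.89 to 7.48 and 4.24 to 6.54 CPM per kb) and did not in WT replicates 1 to 4 (2.95 to 3.77 and 5.65 to 6.16). Map1s and Map1b overlapped in both groups, as did Map9 and Map1a, and Mapt overlapped with Map9 in KO libraries. Map2 was thus the third member per length in KO tumours, and well above Mapt, the other member of its family best known from neurons.

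WT replicate 5 held a different set of these transcripts. It lay above all other 9 libraries for 5 members: 19.5-fold over their median for Mapt, 5.19-fold for Map1a, 4.99-fold for Map4, 4.75-fold for Map9 and 3.57-fold for Map7d1. It lay below all of them for Map2, whose median elsewhere was 22.3-fold higher, and for Map7, whose median elsewhere was 9.36-fold higher. Map1b and Map1s lay within the range of the other libraries. Over all genes it was above the other 9 libraries for 32.3% and below them for 36.5%, so departures of this kind were common there. The directions for Mapt, Map4, Map1a, Map7d1, Map2 and Map7 were the same without TMM scaling. Unscaled, Map9 (2.91 CPM) fell within the range of the other libraries (up to 4.01 CPM) and Map1s (11 CPM) below it (from 15.5 CPM). Beside these values stand the muscle and luminal marker shares given above, and an adipocyte share of 0.67%, against 0.00412% to 0.179% in KO libraries and 0.0023% to 0.0286% in WT replicates 1 to 4. Their part in the member levels was not tested.

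Ratios within a library do not depend on how libraries are scaled. Per count of Map4, Map2 had 1.85, 1.44, 1.18, 0.979 and 1.74 counts in KO replicates 1 to 5, against 0.52, 0.657, 0.726 and 0.597 in WT replicates 1 to 4 and 0.00948 in WT replicate 5. The KO and WT ranges did not meet. Per count of Map7 the values were 1.74, 2.02, 1.17, 1.35 and 1.67 in KO replicates 1 to 5, against 0.751, 0.779, 0.954, 0.911 and 0.607 in WT replicates 1 to 5. By this ratio WT replicate 5 lay close to the other WT libraries, since Map2 and Map7 were both low there, and the means were 1.59 ± 0.334 in KO and 0.801 ± 0.138 in WT tumours (SD, n = 5 each). Against the mean of all 8 relatives on the log2 scale, Map2 was higher by 2.74 ± 0.191 in KO tumours (SD, n = 5) and by 1.96 ± 0.171 in WT replicates 1 to 4 (SD, n = 4), with -3.26 in WT replicate 5. The difference in this log2 ratio was 0.78 without WT replicate 5 and 1.82 with it. These ratios use the same Map2 counts as the choice of Map2 and carry no test.

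**Figure D3:**
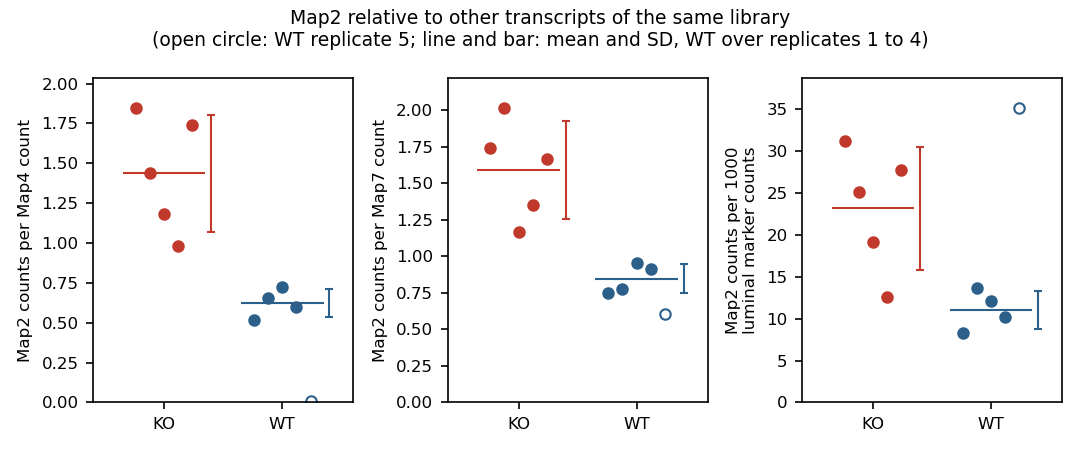
Map2 counts per Map4 count, per Map7 count and per 1000 counts of the luminal marker list in each library, KO left and WT right, with lines and bars for the mean and SD (WT over replicates 1 to 4). KO libraries lie above WT libraries in the first and second panels (0.979 and more against at most 0.726, and 1.17 and more against at most 0.954), and in the third they overlap.

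Per 1000 counts of the 10 luminal epithelial markers, Map2 had 31.2, 25.1, 19.2, 12.6 and 27.8 counts in KO replicates 1 to 5, against 8.3, 13.6, 12.1 and 10.2 in WT replicates 1 to 4. WT replicate 5, with few luminal counts, had 35.2. KO replicate 4 fell within the WT range by this ratio, and the means were 23.2 ± 7.4 in KO tumours (SD, n = 5) and 11.1 ± 2.31 in WT replicates 1 to 4 (SD, n = 4). KO replicate 4 had the highest luminal share of all, 0.78% of its counts.

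Map2 is best known as a marker of neurons, so the markers of neural cells were read beside it. The 13 neuron markers together took 0.000401% to 0.000737% of counts in KO libraries, 0.000502% to 0.000631% in WT replicates 1 to 4 and 0.00111% in WT replicate 5. The 6 neuroendocrine markers took 2.68e-05% to 0.000191%, 5.59e-05% to 0.000157% and 0.000905% in the same groups. Both lists overlapped between KO libraries and WT replicates 1 to 4, and both were highest in WT replicate 5, the library with the lowest Map2. No single marker of these 19 exceeded 3.28 CPM (Rbfox3, a neuronal splicing factor) outside WT replicate 5, where Map2 was never below 48.5 CPM. The synaptic gene Snap25 and the neurofilament gene Nefm were at 0 counts in 8 of the 10 libraries each. Schwann cell and glial markers took 0.0386% to 0.0528% in KO libraries, 0.0426% to 0.0507% in WT replicates 1 to 4 and 0.0475% in WT replicate 5. Outside WT replicate 5, 76.6% to 89.1% of those counts came from Sox10, which is also a transcription factor of mammary epithelium. In WT replicate 5 only 2.04% came from Sox10, so its similar share was made up almost wholly of the other markers of that list.

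Of the other marker lists, fibroblasts took 0.335% to 0.768% in KO libraries, 0.0179% to 0.609% in WT replicates 1 to 4 and 0.662% in WT replicate 5, and myoepithelium 0.0195% to 0.0347%, 0.0186% to 0.0855% and 0.0157%. Endothelium took 0.0144% to 0.0271%, 0.00588% to 0.0201% and 0.0479%, and leukocytes 0.0328% to 0.048%, 0.0296% to 0.143% and 0.0575% in the same groups. These shares overlapped between KO libraries and WT replicates 1 to 4. The 10 markers of dividing cells, Ccnb2 among them, did not overlap, at 0.0379% to 0.0831% in KO libraries and 0.0906% to 0.119% in WT replicates 1 to 4, with 0.00345% in WT replicate 5. Between KO libraries and WT replicates 1 to 4 the dividing-cell share thus separated as Map2 did, in the opposite direction. WT replicate 5 was the lowest library for both, and KO replicate 4 the lowest KO library for both. The part of this share in the level of Map2 was not tested.

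The other genes of the microtubule system were read in 8 lists of 125 genes. edgeR called 0 of them over 9 libraries or over 10, and each call below is from DESeq2 and limma-voom with sample quality weights over 9 libraries. Of the other lattice-binding and minus-end proteins, 20 of 22 were tested, 14 had a positive log2 fold change and the median was 0.09 over 9 libraries, against 9 positive and a median of -0.04 over 10. Dclk1, a doublecortin-like kinase that binds microtubules, stood at 35.8 ± 21.4 CPM in KO tumours (SD, n = 5) and 18.7 ± 6.58 CPM in WT replicates 1 to 4 (SD, n = 4). Its log2 fold change was 0.95 ± 0.52 (edgeR adjusted p = 0.511). Map6d1, of the STOP protein family, and Eml2, an EMAP-like protein, had log2 fold changes of 0.77 ± 0.44 and -0.22 ± 0.11 (edgeR adjusted p = 0.523 and 0.479). No gene of this list was called by any of the 3 tools. The plus-end tracking proteins, which follow growing microtubule tips, had 5 positive and 5 negative values and a median of 0.03 over 9 libraries, against 3 positive, 7 negative and a median of -0.13 over 10. Mapre1, the end-binding protein EB1, stood at 148 ± 10.1 CPM in KO tumours and 174 ± 5.83 CPM in WT replicates 1 to 4 (log2 fold change -0.21 ± 0.08, edgeR adjusted p = 0.37). Every KO library lay below WT replicates 1 to 4, as in 3.44% of all genes tested, but the groups overlapped over 10 libraries. Ckap5, a microtubule polymerase, also lay below WT replicates 1 to 4 in each KO library (-0.28 ± 0.11, adjusted p = 0.384). WT replicate 5, at 50.6 CPM, lay within its KO range of 38.7 to 56.8 CPM. Mapre3 (EB3) had a log2 fold change of 0.34 ± 0.13 (adjusted p = 0.37), which was -0.88 over 10 libraries.

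Among proteins that take microtubules apart, 8 of 11 tested genes had a negative log2 fold change over 9 libraries (median -0.14) and 10 of 11 over 10 (median -0.22). Kif2c, a depolymerizing kinesin of the centromere, stood at 17.7 ± 3.99 CPM in KO tumours (SD, n = 5) and 36.4 ± 2.29 CPM in WT replicates 1 to 4 (SD, n = 4). Stmn1, stathmin, which sequesters tubulin dimers, stood at 59.6 ± 15.8 and 108 ± 6.12 CPM in the same groups. Every KO library lay below WT replicates 1 to 4 for both genes, a pattern seen in 3.44% of all genes tested. Their log2 fold changes were -1.03 ± 0.17 and -0.84 ± 0.19. edgeR did not call them (adjusted p = 0.138 and 0.256), whereas DESeq2 (2.05e-05 and 0.00844) and limma-voom (0.0198 and 0.047) did. Over all genes tested over 9 libraries, DESeq2 called 2.28% and limma-voom 0.752%. WT replicate 5 was lower than all KO libraries for Kif2c and Stmn1 (1.8 and 12.4 CPM), so over 10 libraries the groups overlapped. For Fignl1, a severing-enzyme relative, the value was -0.40 ± 0.25 (edgeR adjusted p = 0.555). Of 16 tested tubulins 11 were negative over 9 libraries, with a median of -0.22, and 11 over 10, with a median of -0.34. Over 9 libraries 4 had every KO library below WT replicates 1 to 4. Tuba1b, an alpha-tubulin, stood at 132 ± 11.8 CPM in KO tumours and 174 ± 13.4 CPM in WT replicates 1 to 4 (edgeR adjusted p = 0.286, DESeq2 0.0235, limma-voom 0.048). Tubb4b, a beta-tubulin, and Tube1, the epsilon-tubulin of centrioles, had log2 fold changes of -0.40 ± 0.12 and -0.69 ± 0.21 (edgeR adjusted p = 0.317 and 0.316), and DESeq2 called Tube1 (0.0497). The calls among the tubulins stand beside the same shares of all genes.

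The clearest pattern among the lists was in spindle microtubule-binding proteins, which act when cells divide. All 12 had a negative log2 fold change over 9 libraries, with a median of -0.73 against 0.03 over all genes, and 11 reached an unadjusted p under 0.05, as did 2204 of all 19016 genes. DESeq2 and limma-voom each called 7 of them lower (Tpx2, Nusap1, Tacc3, Ckap2, Ckap2l, Kif4 and Kif23 in both), against 2.28% and 0.752% of all genes, and edgeR called 0 (lowest adjusted p = 0.193). Tpx2, an activator of Aurora A kinase on the spindle, stood at 54.9 ± 10.8 CPM in KO tumours (SD, n = 5) and 102 ± 13.8 CPM in WT replicates 1 to 4 (SD, n = 4). Tacc3 stood at 48 ± 6.58 and 73.4 ± 4.51 CPM and the chromokinesin Kif4 at 16.5 ± 2.2 and 27.3 ± 2.87 CPM in the same groups. For 8 of the 12 every KO library lay below WT replicates 1 to 4, against 3.44% of all genes. Over 10 libraries this held for 0 of the 12, and all 12 were again negative, with a median of -0.45 and a lowest edgeR adjusted p of 0.684. The dividing-cell share moved the same way, and its part in this list was not tested.

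The remaining lists stayed near the middle of all genes. Of 17 tested tubulin-modifying enzymes 12 were positive, with a median of 0.10. Agbl2, a tubulin deglutamylase, was the 1 gene of this list with no overlap. Over all genes 2.00% had every KO library above WT replicates 1 to 4. Agbl2 stood at 1.21 ± 0.69 CPM in KO tumours and 0.366 ± 0.204 CPM in WT replicates 1 to 4 (log2 fold change 1.72 ± 0.54, edgeR adjusted p = 0.317). Ttll1 and Ttll7, which add glutamate chains to tubulin, had log2 fold changes of 0.43 ± 0.17 and 0.32 ± 0.14 (edgeR adjusted p = 0.376 and 0.433), and that of Ttll7 was -0.55 over 10 libraries. The kinases that phosphorylate these proteins had a median of 0.03, with 10 of 16 positive. Camk2d, a calmodulin-dependent kinase, stood at 48.2 ± 4.54 CPM in KO tumours and 31.3 ± 12.2 CPM in WT replicates 1 to 4 (0.64 ± 0.27, edgeR adjusted p = 0.413). It was the 1 kinase with no overlap between these groups, against the same 2.00% of all genes. WT replicate 5, at 91.6 CPM, lay above every KO library, and the log2 fold change of Camk2d over 10 libraries was 0.15. Camk2b and Prkaca, a catalytic subunit of protein kinase A, had log2 fold changes of 1.13 ± 0.63 and -0.14 ± 0.10 (edgeR adjusted p = 0.516 and 0.602), and that of Camk2b was -4.66 over 10 libraries. Of 15 tested motor subunits 11 were positive, with a median of 0.14. Kif5c, a kinesin-1 heavy chain of neurons, stood at 5.99 ± 2.26 CPM in KO tumours and 3.1 ± 1.18 CPM in WT replicates 1 to 4 (0.96 ± 0.35, edgeR adjusted p = 0.358). It was the 1 motor subunit with no overlap, again beside 2.00% of all genes. The kinesin-3 genes Kif1c and Kif1b had log2 fold changes of 0.25 ± 0.10 and 0.21 ± 0.10 (edgeR adjusted p = 0.412 and 0.465), and -0.30 and -0.61 over 10 libraries. DESeq2 and limma-voom called no gene of these 3 lists. With all 10 libraries the medians were 0.14 for the modifying enzymes, -0.08 for the kinases and -0.02 for the motors, against -0.06 over all genes, with 11 of 17, 4 of 16 and 6 of 15 positive.

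**Figure D4:**
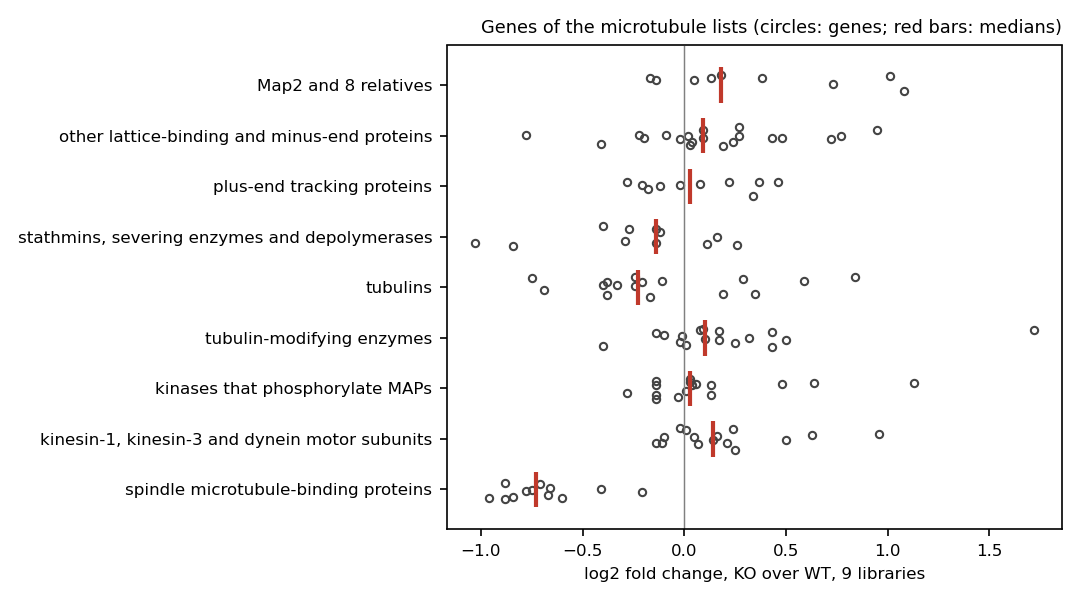
Log2 fold change, KO over WT, of every tested gene of the 9 members and the 8 other microtubule lists over 9 libraries, with red bars for list medians and a grey line at 0. The 12 spindle genes all lie left of 0 with a median of -0.73, and the medians of the other lists lie between -0.22 (tubulins) and 0.18 (Map2 and its relatives).

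The genes whose profile over the libraries was most like that of Map2 were found by the root-mean-square difference of log2 CPM, each gene centred on its own mean, among 13100 genes with at least 1 CPM on average. Over 9 libraries these were Npl, a sialic acid lyase (0.13), the protocadherin Pcdhb7 (0.25), the phosphatidylinositol phosphate kinase Pip5k1b (0.25), Tnfsfm13 (0.25) and Ankrd12 (0.25), against a median of 0.60 over all genes compared. Npl stood at 85.8, 86.5, 75.6, 72.4 and 86.6 CPM in KO replicates 1 to 5 and at 43.9, 51.4, 49, 46.5 and 31.4 CPM in WT replicates 1 to 5. As with Map2, KO replicates 3 and 4 were the lowest of the KO libraries and WT replicate 1 the lowest of WT replicates 1 to 4. Of the relatives, Mapt was the nearest to Map2, at 0.42 and rank 603, followed by Map7 (0.50, rank 2270) and Map1s (0.50, rank 2481), and Map1b (1.03) was the farthest. Over 10 libraries, 13238 genes, the nearest were Pip5k1b (0.24), Vipr1 (0.36), Mdfi (0.37), Rab11fip4 (0.38) and Celsr2 (0.39). Map7 then ranked 93 (0.55) and Mapt, at 2.54 and rank 12604, was the farthest of the relatives, and Npl was no longer among the nearest 5. Map2 was chosen on its difference between KO and WT, so its centred profile carries that difference, and genes near it tend to share it. The 5 nearest over 9 libraries had log2 fold changes of 0.66 to 0.98. All these profiles share their libraries, and likeness over so few libraries is a description.

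Map2 and Rhbdd1 are both on chromosome 1, and the genes around Map2 were read for that reason. Rhbdd1 itself lies outside the 1 Mb window read here, and a link between the loci was not tested. The annotation (GENCODE M21, GRCm38) holds 41 genes within 1 Mb of Map2, of which 18 were tested over 9 libraries and 0 were called by edgeR (lowest adjusted p = 0.16), with 7 at an unadjusted p under 0.05, against 2204 of all 19016 genes. DESeq2 called 4 of the 18 and limma-voom 3, against 2.28% and 0.752% of all genes. The DESeq2 calls were Idh1, Rpe, Gm37570 and Gm10558, the last of which lies within Map2. DESeq2 gave no adjusted p for Gm25411, Gm38387, Gm15789, Gm37285 and Gm15793. Log2 fold changes were positive for 13 and negative for 5, and their median was 0.35, against 0.03 over all genes. The positive ones include Gm25411, Gm38387, Gm15789, Gm37285, Gm38218 and Gm15793, which averaged under 1 CPM in both groups. Gm10558 and Gm25411 lie within Map2 itself. Of the 8 protein-coding genes tested, Idh1, Rpe and Unc80 were negative, Kansl1l, Acadl and Myl1 positive, and Pikfyve and Lancl1 level. In every KO library 2 genes lay above WT replicates 1 to 4 and 3 below, against 2.00% and 3.44% of all genes. Idh1, cytosolic isocitrate dehydrogenase, stood at 81.7 ± 9.86 CPM in KO tumours (SD, n = 5) and 129 ± 26.2 CPM in WT replicates 1 to 4 (SD, n = 4), with no overlap (log2 fold change -0.64 ± 0.16, edgeR adjusted p = 0.284). Rpe, ribulose phosphate epimerase, stood at 54.5 ± 13 and 90.7 ± 13.3 CPM in the same groups (-0.72 ± 0.18, adjusted p = 0.285). Gm37570, a predicted gene, had the lowest p of the neighbours (-1.93 ± 0.32), while Pikfyve (0.01 ± 0.09) and Lancl1 (0.04 ± 0.10) were level. On the positive side, the predicted gene Gm37285 stood at 0.488 ± 0.168 CPM in KO tumours and 0.0976 ± 0.0464 CPM in WT replicates 1 to 4, with no overlap (2.26 ± 0.42, edgeR adjusted p = 0.193). Gm38218 (1.71 ± 0.54) and Acadl, a mitochondrial acyl-CoA dehydrogenase (1.02 ± 0.32, and -0.44 over 10 libraries), overlapped between the groups. All neighbours in this paragraph were named after their values were seen.

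The antisense gene Gm10558 lies within Map2 on the other strand. It had 113, 97, 61, 89 and 59 counts in KO replicates 1 to 5 and 28, 43, 60, 56 and 8 counts in WT replicates 1 to 5, 2.19% of the Map2 counts in all. In CPM every KO library lay above every WT library (1.6 to 3.01 against 0.844 to 1.55 CPM in WT replicates 1 to 4). Its log2 fold change was 1.09 ± 0.28, which DESeq2 called (adjusted p = 0.0129) and edgeR (0.287) and limma-voom (0.12) did not. The libraries were made with a stranded kit, but no source used here gives the strand setting of the counting, so reads of Gm10558 and Map2 may not be told apart. Of genes that overlap other members, the pseudogene Rpl32l in Map7 held 11.7% of the Map7 counts and 5330431K02Rik in Map1b held 4.68% of the Map1b counts. Apart from Ppip5k1, each of the rest held less than that share of its member.

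**Figure D5:**
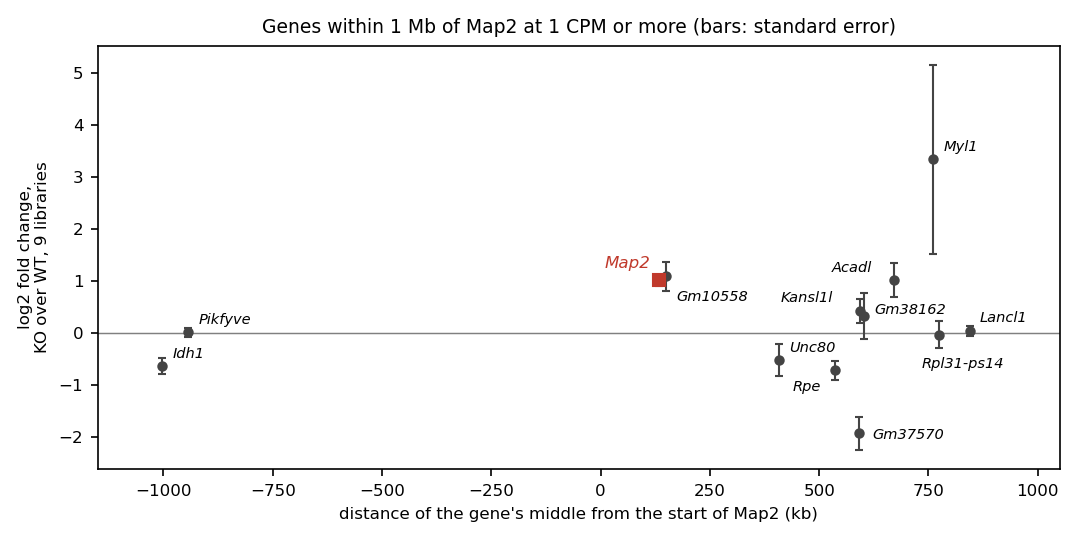
Log2 fold change, KO over WT, over 9 libraries with standard error for the genes within 1 Mb of Map2 at 1 CPM or more in a group, by distance of the gene's middle from the start of Map2. Map2 (red, 1.01) and its antisense gene Gm10558 (1.09) lie above 0, Idh1 (-0.64), Rpe (-0.72) and Gm37570 (-1.93) below, and Myl1, a muscle myosin light chain, has a wide error (3.34 ± 1.82, and -6.19 over 10 libraries).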

How the data were processed

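RNA was measured in 5 KO and 5 WT whole mammary tumours, grouped by the labelled genotype. Per the labels' protocols, poly(A) RNA was turned into stranded libraries. The authors deposited raw read counts per gene, and the build GRCm39 and the tools FastQC, STAR, featureCounts and DESeq2 are named in the submitters' processing notes. Tool versions, the annotation release, the strand setting and the handling of multiply mapped reads are not given in those sources. There were 0 count columns without a sample. Of 57010 genes, 52029 had a symbol, and 19174 had 0 counts in all libraries. Totals per library of 25.7 to 43.3 M counts set the counting error.

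KO was compared with WT over all genes with edgeR 4.0.16 under R 4.3.3, using TMM, filterByExpr, robust dispersion estimates and quasi-likelihood F-tests, over 10 libraries (18577 genes) and over 9 without WT replicate 5 (19016 genes). Calls were made at a Benjamini-Hochberg adjusted p under 0.05. A standard error is the size of the log2 fold change divided by the square root of F. Log2 CPM for likeness and for the ratio to the relatives used a prior count of 2. DESeq2 1.42.0 and limma 3.58.1 (voom with sample quality weights), RLE scaling, no filter, at least 10 counts in every library, sums of libraries whose names start with the same number, and leaving out each library were alternatives. Tested on simulated data, edgeR recovered 8% of 100 genes changed 2-fold and 76% of 100 changed 4-fold over 10 libraries, and 55% and 94% over 9. Of its calls there, 2 of 86 and 6 of 155 were unchanged genes. The simulated libraries were independent draws with the spread estimated from the data. None was given a profile of its own, and only better-expressed genes were changed. Recovery in the real libraries may therefore differ.

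The members and lists were chosen with earlier results of these data known. All 9 members, Rhbdd1, the 3 genes of smallest p in each list, the 5 genes most like Map2 and the largest genes by counts that overlap a member are named. Exonic lengths and gene neighbourhoods came from GENCODE M21 on GRCm38, not the build of the counts. Each library carries its own batch label, so if these labels mark batches, no batch held both groups and batch cannot be told apart from library. The comparison of KO with WT then cannot be adjusted for batch. Nothing in the labels says that libraries are separate animals, so a p-value here measures only how these samples spread, which may be technical.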

Additional observations from a re-analysis of the deposited data

Results flagged for a closer look

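Each member's level was read in each group for a single library far from the others, by Dixon's test at 95% for groups of 4 or 5. Of 27 groups tested 8 stood out, at a level set to flag about 1 in 20 by chance. The WT groups with and without replicate 5 share libraries, so the groups are not separate tests. WT replicate 5 was already known to stand apart, lying above the other 9 libraries for 32.3% of all genes and below them for 36.5%. In 6 of them the library was WT replicate 5 among the 5 WT libraries: 4.34 CPM for Map2, 91 CPM for Mapt, 458 CPM for Map4, 13.1 CPM for Map1a, 7.14 CPM for Map7 and 345 CPM for Map7d1. Among WT replicates 1 to 4, WT replicate 3 was low for Map4 (85.5 CPM, against 92.3 to 93.3 CPM in the others), and WT replicate 2 was high for Map9 (2.31 CPM, against 0.558 to 0.804 CPM). No KO library was set apart by this test for any of the 9 members.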

How the results depend on the processing

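The log2 fold change of Map2 stayed positive under every alternative run, from 0.94 to 1.06 over 9 libraries and from 1.01 (without WT replicate 5) to 1.54 (sums by leading number) over 10. Over 9 libraries its edgeR adjusted p of 0.0413 became 0.0534 to 0.247 when 1 more library was omitted, and 0.681 on sums by leading number. Counts of called genes over 10 libraries were 0 in edgeR, 50 in DESeq2, 17 in limma-voom and 0 to 2 when a library was left out, with 2 only without WT replicate 5. Over 9 libraries they were 2 in edgeR, 433 in DESeq2, 143 in limma-voom, 0 on sums by leading number, which leave fewer units, and 0 to 1 when a library was left out. Of the relatives' alternatives, 16 turned the sign of a log2 fold change and 232 did not. Over 10 libraries, limma-voom gave 0.77 for Mapt (main -1.69). Leaving out a library over 10 gave -1.95 to 0.73 for Mapt, -1.19 to 0.18 for Map1a, -0.79 to 0.38 for Map1b and -0.06 to 0.10 for Map1s. Over 9 libraries limma-voom gave -0.06 for Map1a and -0.63 for Map1b, and leaving out a library gave -0.16 to 0.63 for Map1a, -0.35 to 0.60 for Map1b and -0.04 to 0.12 for Map1s. None of these relatives was called in any of these fits. Map2 against its relatives within a library differed by 1.82, by 2.38 with Map4 alone below the ratio and by 0.78 without WT replicate 5. Of the 5 genes most like Map2 over 9 libraries, 1 was shared with the 5 over 10. Beyond the leave-out and WT replicate 5 effects named here, the cause of these changes was not tested. No paired analysis was possible because no number in the labels pairs KO with WT libraries. Depth limits mainly Map9, Map1a and, in WT replicate 5, Map2.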
